A study of Mus musculus with 48 samples.

Results

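The genes described here are enzymes of the cholesterol synthesis pathway together with Insig1 and Srebf2, which regulate it, in primary mouse osteoblasts, bone-forming cells, taken from the calvaria. They were taken as a list of 8 gene symbols, each read from the brightest of its probes that was detected above background. Of the 8 genes, 7 were measured, out of 10739 genes measured on the arrays; Hmgcs1, the hydroxymethylglutaryl-CoA synthase gene, was not analysed here, because no probe carries its symbol in the annotation used. The study asked which responses run through the oncostatin M receptor OSMR and which through the leukemia inhibitory factor receptor LIFR. Cultures from Osmr null mice (KO) and wild-type cultures (WT), both C57BL/6, were kept in differentiation medium for 17 days, and then received 10 ng/ml of oncostatin M of the mouse (mOSM) or of human sequence (hOSM), or of leukemia inhibitory factor (mLIF), or no ligand (control), for 6 h or 1 h. Source name and design text call the cells osteoblasts, and a further label calls them osteocytes. These are 16 groups of 3 bead arrays, 48 arrays on 8 beadchips. According to the design text only mOSM can use both receptors of these cells, while the other ligands are restricted to LIFR. The cells of both genotypes came from cousin-bred litters and were frozen before use. The labels state 2 thaw days and the design text 3 occasions, and the LIF is called mouse in the sample titles and human in the treatment protocol. No source says that replicates of a genotype derive from different animals, so that p-values measure only the spread between these samples, which may be technical.

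Cholesterol is built from acetyl-CoA through the isoprenoids and squalene. The rate is set mainly by transcription: Srebf2 encodes SREBP-2, a transcription factor held in the endoplasmic reticulum membrane by INSIG proteins while sterols are plentiful, and carried to the Golgi, cut and released to the nucleus when they are scarce. It then switches on nearly every enzyme gene of the pathway, and Insig1 as well, which closes a feedback loop. In the order of the pathway, Idi1 isomerises isopentenyl diphosphate, Fdps makes farnesyl diphosphate, Sqle oxidises squalene, Lss closes it to lanosterol and Cyp51 demethylates lanosterol. In bone, the Fdps enzyme is best known as the target of the nitrogen-containing bisphosphonates, drugs that act on osteoclasts.

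The arrays had median signals of 116.3 to 169.8 intensity units and 14231 to 16767 probes above background, and their number, 3 in each group, limits the precision. Osmr averaged 7.36 on the normalised log2 scale on the 24 KO arrays, all at or below 8.75, against 10.68 on the 24 WT arrays, all at or above 9.51, which fits the labels. The osteoblast genes Col1a1, Col1a2, Sp7, Alpl and Pth1r were above background on all 48 arrays, with Bglap on 43 and Ibsp on 33. Of the osteocyte genes, Phex and Pdpn were above background on 48 arrays, Mepe on 12, Dmp1 on 7, and Sost and Fgf23 on 0. Of the macrophage and osteoclast genes, Lyz2 and Ctsk were above background on 48 arrays, Csf1r on 45, Adgre1 on 28 and Tyrobp on 18, while Ptprc, Itgam and Acp5 were on 0. The endothelial gene Tek was above background on 48 arrays and Kdr on 11, with Pecam1 and Cdh5 on 0, and the muscle gene Des on 39, with Myod1 and Ckm on 0. Same-numbered arrays of a genotype are called a culture here, a grouping that the sample titles do not state. One culture stood apart on the first principal component, which held 29.6% of the variance. The component averaged 60.7 over the 8 arrays of KO culture 3 and between -17.7 and -0.132 over those of the other 5 cultures. By the labels, the arrays numbered 3 of both genotypes were thawed on a different day from the rest. The log2 of the summed intensities of the adipocyte genes, which the brightest of them dominate, ran from 10.3 to 14.3 on KO arrays and from 12.7 to 15.0 on WT arrays. That of the macrophage and osteoclast genes ran from 12.9 to 13.6 on KO arrays and from 12.8 to 15.0 on WT arrays. The part of these sums in the results below was not tested.

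Sqle, Fdps, Cyp51, Insig1 and Srebf2 were above background on all 48 arrays, Lss on 47 and Idi1 on 40. Probes differ in brightness for reasons other than transcript number, so their levels are not set against each other; each gene is compared with itself across groups. The widest span of group means was that of Idi1, 1.45 on the log2 scale, with a mean within-group SD of 0.48, and the narrowest that of Srebf2, 0.40, with a within-group SD of 0.37. The lowest group mean belonged to KO hOSM at 6 h for Sqle, Idi1, Fdps, Lss and Insig1, to KO mLIF at 6 h for Cyp51 (8.53) and to KO mOSM at 6 h for Srebf2 (8.39). The highest group mean was in a 1 h group for each of the 7 genes. One array counted heavily in this: replicate 3 of KO hOSM at 6 h was the lowest of all 48 arrays for Sqle, Idi1, Fdps, Lss and Cyp51.

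**Figure D1:**
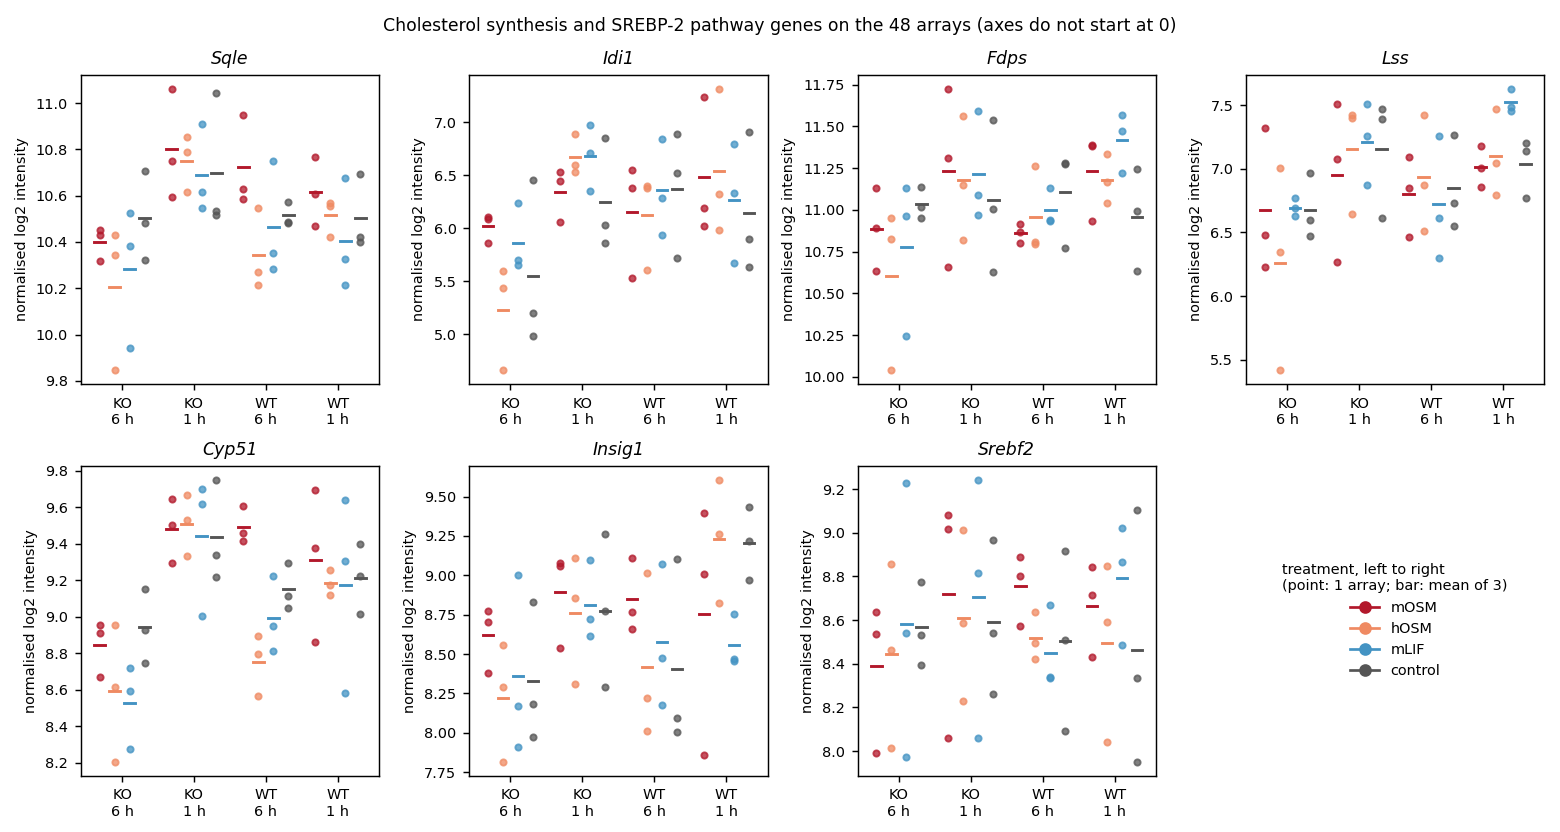
Normalised log2 intensity of the 7 measured genes on each array (points) with the group mean (bars), by genotype and time, each block running mOSM, hOSM, mLIF, control from left to right. The KO 6 h arrays lie low for Cyp51 (8.21 to 9.15), and the WT mOSM 6 h arrays (9.41 to 9.60) stand above the other WT 6 h arrays.

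None of the 7 genes passed the test for a change with any ligand. In WT cultures at 6 h, where mOSM changed 27.5% of all genes tested (limma, adjusted p under 0.05), 0 of 7 passed, and 0 passed at an unadjusted p under 0.05. The median difference of the 7 genes was 0.21, beside -0.08 over all genes tested. Sqle stood at 10.59, 10.95 and 10.63 in WT mOSM at 6 h, against 10.49, 10.48 and 10.57 in the WT control, a difference of 0.21 ± 0.17 (SE, n = 3 each; limma adjusted p = 0.417). The groups did not overlap, though the margin between them was narrow. The share of all genes whose groups did not overlap is not given, so such statements here and below only describe the arrays. Cyp51 stood at 9.46, 9.41 and 9.60 in WT mOSM at 6 h, against 9.05, 9.11 and 9.29 in the control, also without overlap, and the difference of 0.34 ± 0.22 had a 95% confidence interval from -0.10 to 0.79 (adjusted p = 0.268). A rise of Cyp51 of up to 0.79 thus lies within the interval.

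The other enzymes and the regulators overlapped between the groups. Idi1 gave 5.53, 6.38 and 6.55 in WT mOSM at 6 h, against 5.72, 6.89 and 6.52 in the control. For Fdps the values were 10.91, 10.87 and 10.80 with mOSM and 11.28, 10.77 and 11.28 in the control. Lss had 6.47, 7.09 and 6.85 with mOSM and 6.55, 6.73 and 7.27 in the control. In none of these 3 genes did the difference exceed its standard error. Srebf2 reached 8.89, 8.57 and 8.80 with mOSM, against 8.51, 8.09 and 8.92 in the control. Insig1 had 8.77, 9.11 and 8.66 with mOSM and 8.01, 9.11 and 8.10 in the control, a difference of 0.44 ± 0.35. Its probes did not run the same way: the other 2 detected probes of Insig1 gave -0.49 ± 0.39 and -0.59 ± 0.38 in the same comparison, so no direction is given for this gene.

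The other 11 comparisons of a ligand with its control gave the same count, 0 of 7 by limma and 0 of 7 at an unadjusted p under 0.05. Background shares there were small. In WT cultures, 0.661% of all genes passed with hOSM and 0.466% with mLIF at 6 h, and 0.745% with mOSM, 0.466% with hOSM and 0.624% with mLIF at 1 h. In KO cultures, 0% passed with mOSM, 0.829% with hOSM and 0.922% with mLIF at 6 h, and 0.00931% with mOSM, 0.4% with hOSM and 0.428% with mLIF at 1 h. Beside shares of this size a count of 0 among 7 genes is near the background. KO cultures given hOSM for 6 h had all 7 genes lower than the KO control, by 0.11 to 0.43, none of them passing. Cyp51 with hOSM at 6 h was lower than the control in WT cultures by 0.40 ± 0.22, without overlap of the groups, and in KO cultures by 0.35 ± 0.22, with limma adjusted p of 0.791 and 0.825. With mLIF at 6 h the Cyp51 difference was -0.16 ± 0.22 in WT and -0.41 ± 0.22 in KO cultures. The 95% intervals of these differences reached at most 1.35 in size, that of Insig1 with mLIF in WT cultures at 1 h.

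**Figure D2:**
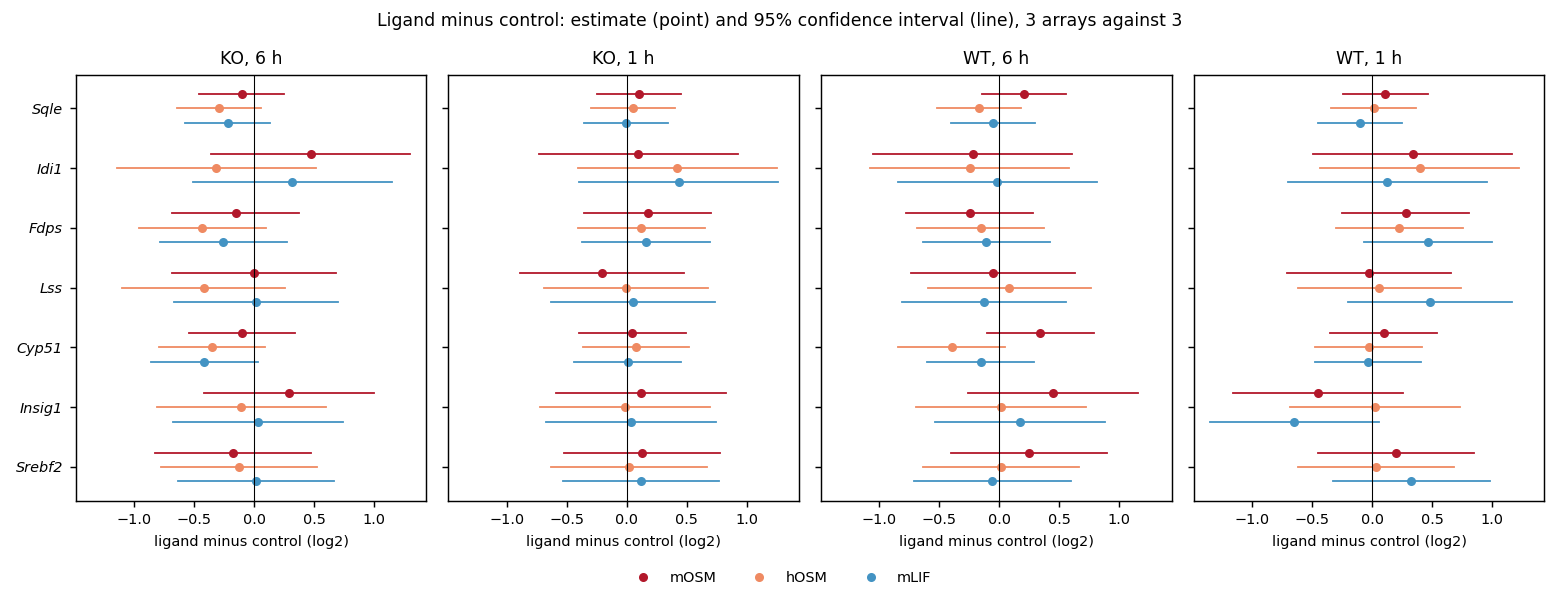
Difference of each ligand from the control of the same genotype and time (points, log2) with its 95% confidence interval (lines), for the 7 genes in 4 panels. All intervals include 0; Cyp51 in WT cultures at 6 h has mOSM at 0.34 and hOSM at -0.40.

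Between ligands, 1 difference passed: Cyp51 was higher with mOSM than with hOSM in WT cultures at 6 h. Its values were 9.46, 9.41 and 9.60 with mOSM and 8.80, 8.89 and 8.56 with hOSM, a difference of 0.74 ± 0.22 or 1.67-fold (95% interval 0.30 to 1.18; limma adjusted p = 0.0167), in a comparison where 16% of all genes passed. The 3 mOSM arrays lay above every hOSM array and the 3 control arrays of that time lay in between. A count of 1 in 7 is close to that background. The call was lost without replicate 3 of WT mOSM (0.68, adjusted p = 0.0657) or without replicate 3 of WT hOSM (0.65, adjusted p = 0.0705), and with the arrays of the first thaw day alone (0.59, adjusted p = 0.112). Scaling the arrays to a common median in place of quantiles also ended it (0.48 ± 0.29, limma adjusted p = 0.279). The median of all genes in the comparison was -0.27 with that scaling and -0.08 with quantiles. Relative to that median Cyp51 was 0.82 higher by quantiles and 0.76 higher by medians, 2 values that were not tested.

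With the culture as a block, since same-numbered arrays of a genotype deviate together, Cyp51 passed more clearly (adjusted p = 0.00282) and Sqle passed too, at 0.38 ± 0.15 (adjusted p = 0.0479, limma), where 33.1% of all genes passed. Sqle had 10.59, 10.95 and 10.63 with mOSM, against 10.21, 10.55 and 10.27 with hOSM: the arrays paired by culture differ in the same direction 3 times. Against mLIF in WT cultures at 6 h, where 15.5% of all genes passed, 0 of 7 passed (1 at an unadjusted p under 0.05), and with the culture block Cyp51 did, at 0.50 ± 0.19 (adjusted p = 0.0441; 0.128 without the block), beside 31.5% of all genes. Its mLIF values were 8.95, 9.22 and 8.81. In the other 10 comparisons between ligands 0 of 7 passed with limma, with or without the block. Without the block, 0 had an unadjusted p under 0.05 there. There 0% of all genes passed for hOSM against mLIF in WT at 6 h and for all 3 pairs in WT at 1 h; in KO cultures, 0.186% passed for mOSM against hOSM, 0.186% for mOSM against mLIF and 0% for hOSM against mLIF at 6 h, and 0.149%, 0.158% and 0% for the same pairs at 1 h.

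No difference between the genotypes passed the test. In untreated cultures 0 of 7 genes passed for KO against WT at 6 h, where 0.0279% of all genes passed, or at 1 h, where 0.0186% did. Idi1 in the controls at 6 h had 5.20, 4.98 and 6.46 in KO, against 5.72, 6.89 and 6.52 in WT, a difference of -0.83 ± 0.41 with an unadjusted p of 0.0498 and a limma adjusted p of 1. Of these KO arrays, 1 was above background for Idi1. The difference of a ligand's effect between KO and WT passed for 0 of 7 genes with each ligand at each time, and none had an unadjusted p under 0.05. For mOSM at 6 h, 9.7% of all genes had such a difference; Cyp51 was at -0.44 ± 0.31, with a 95% interval from -1.07 to 0.19 (adjusted p = 0.453). The shares were 0% for hOSM and 0% for mLIF at 6 h, and 0.0745% for mOSM, 0% for hOSM and 0% for mLIF at 1 h.

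The clearest pattern lay between the times, and in KO cultures. Over the 4 treatments, Idi1, Sqle, Lss and Cyp51 were lower at 6 h than at 1 h in KO cultures, 4 of the 7 genes, in a comparison where 10.9% of all genes passed in either direction and 3.97% were lower. This comparison over all treatments was added after the values had been seen, as was its WT counterpart. The median difference of the 7 genes was -0.43, beside 0.02 over all genes. In WT cultures the same comparison passed for 0 of 7 genes (1 at an unadjusted p under 0.05, Insig1) against a background of 23.7%. None of the 7 osteoblast, 4 osteocyte, 7 adipocyte and 5 macrophage and osteoclast genes measured passed between the times in KO cultures in this fit. With the culture as a block, 1 osteoblast gene, Pth1r (0.57, adjusted p = 2.05e-06), and 1 osteocyte gene, Pdpn (0.21, adjusted p = 0.0295), were higher at 6 h; their part in the results was not tested.

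Cyp51 ran from 8.21 to 9.15 with a median of 8.73 on the 12 KO arrays at 6 h, against 9.00 to 9.75 with a median of 9.52 on the 12 KO arrays at 1 h. Of the 12 arrays at 6 h, 11 lay below every array at 1 h. The difference of -0.74 ± 0.11 (SE; limma adjusted p = 7.7e-06) is a 1.67-fold lower level, and it was negative with each of the 4 treatments, from -0.92 to -0.49. By culture it was -0.75, -0.53 and -0.94. WT arrays for Cyp51 ran from 8.56 to 9.60 at 6 h (median 9.08), against 8.58 to 9.69 at 1 h (median 9.24), which overlapped along nearly the whole range.

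Idi1, of which many arrays had only a dim signal, ran from 4.66 to 6.46 with a median of 5.67 on the KO arrays at 6 h, against 5.86 to 6.98 with a median of 6.53 at 1 h, and was above background on 6 of the 12 arrays at 6 h, against 12 of 12 at 1 h. The difference was -0.82 ± 0.20 (adjusted p = 0.00605, limma), a 1.77-fold lower level; the KO hOSM group at 6 h had 0 arrays above background, so that this size rests partly on dim values, and without background correction it was -0.30 (adjusted p = 0.013), smaller than the -0.61 of Cyp51 in that setting. Sqle ran from 9.85 to 10.71 (median 10.41) on KO arrays at 6 h, against 10.52 to 11.06 (median 10.68) at 1 h, and 10 of the 12 arrays at 6 h lay below every array at 1 h. The Sqle difference was -0.39 ± 0.09 (adjusted p = 0.00215, limma). A second detected Sqle probe gave -0.57 ± 0.15 in the same comparison (adjusted p = 0.00873 over all probes), and 0.12 ± 0.15 in WT cultures.

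Lss ran from 5.42 to 7.32 (median 6.61) on KO arrays at 6 h, against 6.27 to 7.51 (median 7.32) at 1 h, a difference of -0.54 ± 0.17 (adjusted p = 0.0313, limma). This call was the least secure of the 4. Leaving out any of 9 of the 24 KO arrays singly ended it, among them replicate 3 of KO hOSM at 6 h (-0.44, adjusted p = 0.0777). So did the mean of the detected probes (-0.23, adjusted p = 0.154). A dimmer Lss probe, above background on 8 arrays, gave 0.08 ± 0.11. Fdps differed by -0.34 ± 0.13 (adjusted p = 0.0869) and Insig1 by -0.43 ± 0.17 (adjusted p = 0.116); both passed with the culture as a block, which raised the count to 6 of 7 (adjusted p = 0.0036 for Fdps and 0.0419 for Insig1). In that fit 26.4% of all genes passed and 11% were lower at 6 h. The other detected probes ran the same way, with -1.02 ± 0.25 for Fdps and -0.68 ± 0.19 and -0.89 ± 0.19 for Insig1. In WT cultures these probes ran lower too, with -0.80 ± 0.25 for Fdps (adjusted p = 0.018 over all probes) and -0.47 ± 0.19 and -0.40 ± 0.19 for Insig1. Srebf2 differed by -0.16 ± 0.16 and passed in neither fit.

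Each of the 7 genes had a lower mean at 6 h in all 3 KO cultures and with all 4 treatments. The smallest treatment differences were only -0.02 for Fdps and -0.02 for Srebf2. The share of all genes lower in this way is not given and the 7 genes are not independent, so the statement only describes the arrays. Among the 3 cultures the differences ranged from -0.49 to -0.33 for Sqle and from -0.95 to -0.64 for Idi1. Without KO culture 3, the one that stood apart, the same 4 genes passed, at -0.41 for Sqle, -0.76 for Idi1, -0.61 for Lss and -0.64 for Cyp51. Times were unevenly spread over the beadchips, 6 of which held KO arrays of both times, while one held 4 KO arrays at 6 h and 0 at 1 h. The spread was more uneven for WT arrays, with both times on 3 beadchips. A further beadchip held 4 WT arrays at 1 h and 0 at 6 h, and another 0 at 1 h and 4 at 6 h. Of these 4 genes, Cyp51 (-0.53, adjusted p = 0.00235) and Idi1 (-0.81, adjusted p = 0.0272) passed with the beadchip as a block, while Sqle (-0.25, adjusted p = 0.126) and Lss (-0.58, adjusted p = 0.093) did not. In that fit the count of passing genes among the 7 stayed within 1.5 times of 4. At least 1 gene besides Cyp51 and Idi1 therefore passed there.

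**Figure D3:**
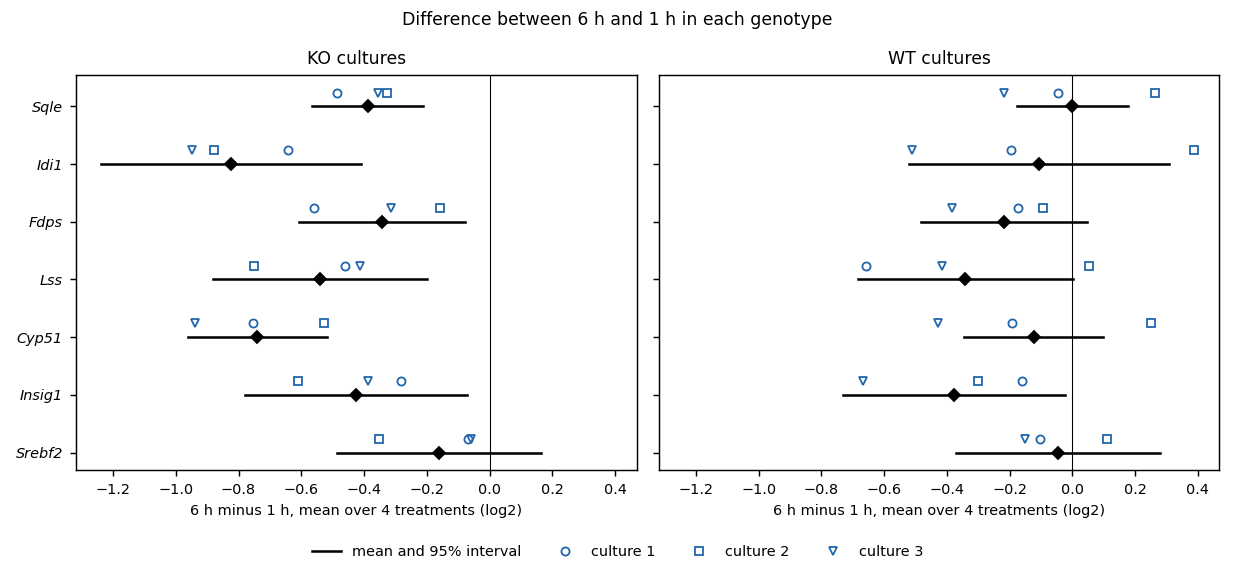
Difference between 6 h and 1 h, averaged over the 4 treatments, for the 7 genes in KO (left) and WT cultures (right), on the log2 scale; diamonds and lines are the estimate and its 95% confidence interval, open symbols the 3 cultures. In KO cultures all culture values are below 0, while WT culture 2 lies above 0 for Sqle, Idi1, Lss, Cyp51 and Srebf2.

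Whether the KO and WT cultures differed in this was tested directly, and 0 of 7 genes passed (3 at an unadjusted p under 0.05), with 0.475% of all genes passing. Cyp51 came nearest, at -0.62 ± 0.15 for KO minus WT (95% interval -0.93 to -0.30; limma adjusted p = 0.0555). With the culture as a block, Cyp51 (adjusted p = 0.00399) and Sqle, at -0.39 ± 0.10 (adjusted p = 0.0193), passed, 2 of 7, beside 6.66% of all genes. In WT cultures alone the block brought Fdps (-0.22 ± 0.09, adjusted p = 0.047) and Lss (-0.34 ± 0.11, adjusted p = 0.0133) past the threshold, both lower at 6 h, beside 40.9% of all genes. WT culture 2 differed from its 2 counterparts: it was higher at 6 h for Cyp51 by 0.25, for Sqle by 0.26 and for Idi1 by 0.39, whereas WT cultures 1 and 3 were lower for all 3 genes. In untreated cultures alone the time difference passed for 0 of 7 genes in KO (1 at an unadjusted p under 0.05, Cyp51 at -0.49 ± 0.22) with 0.279% of all genes passing, and for 0 of 7 in WT (1 at an unadjusted p under 0.05, Insig1 at -0.80 ± 0.35) with 0.428% passing. A change of a ligand's effect between 6 h and 1 h was not called for any of the 7 genes (0 of 7 by limma and 0 at an unadjusted p under 0.05 in all 6 comparisons); background shares were 0% for mOSM, 0.0745% for hOSM and 0.13% for mLIF in KO, and 13% for mOSM, 0.0745% for hOSM and 0.0931% for mLIF in WT cultures.

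The promoters of the genes that were lower together in KO cultures are shown for the letters SREBP-2 and its partner factors are known to bind. The 250 bases upstream of the transcription start, from RefSeq on GRCm38.p6, were held for 6 of the 8 listed genes, and the 4 printed are Idi1 (chr13:8885356-8885605, plus strand), Lss (chr10:76531355-76531604, plus strand), Cyp51 (chr5:4104698-4104947, minus strand) and, for comparison, Srebf2 (chr15:82147019-82147268, plus strand). Each is read 5′ to 3′ along its gene, with capitals for a sterol regulatory element core TCACNCCA, an NF-Y box CCAAT or an Sp1 box GGGCGG on either strand.
Idi1: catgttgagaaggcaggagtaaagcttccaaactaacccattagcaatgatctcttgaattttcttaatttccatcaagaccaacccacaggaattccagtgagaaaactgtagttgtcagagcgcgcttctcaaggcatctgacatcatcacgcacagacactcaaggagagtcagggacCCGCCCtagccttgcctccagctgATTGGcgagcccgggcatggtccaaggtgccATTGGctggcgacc
Lss: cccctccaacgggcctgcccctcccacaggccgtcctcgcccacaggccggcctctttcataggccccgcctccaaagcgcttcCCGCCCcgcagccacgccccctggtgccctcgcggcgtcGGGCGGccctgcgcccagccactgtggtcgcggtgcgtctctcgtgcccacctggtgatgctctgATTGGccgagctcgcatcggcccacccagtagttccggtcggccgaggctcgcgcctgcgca
Cyp51: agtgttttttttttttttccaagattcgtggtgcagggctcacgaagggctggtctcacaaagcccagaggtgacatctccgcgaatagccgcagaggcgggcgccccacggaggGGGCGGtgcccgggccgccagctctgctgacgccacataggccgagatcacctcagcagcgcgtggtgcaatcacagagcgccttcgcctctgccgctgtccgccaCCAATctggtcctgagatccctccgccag
Srebf2: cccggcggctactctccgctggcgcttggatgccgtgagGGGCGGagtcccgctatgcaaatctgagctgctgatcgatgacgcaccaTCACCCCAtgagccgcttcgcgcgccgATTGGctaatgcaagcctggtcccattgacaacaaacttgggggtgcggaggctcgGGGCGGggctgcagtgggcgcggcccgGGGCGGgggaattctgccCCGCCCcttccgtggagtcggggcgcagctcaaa
All 6 promoters hold CCAAT, which 33.8% of the 32851 promoters of the table hold, and all 6 hold GGGCGG, held by 32.7%. TCACNCCA is in 2 of the 6, Hmgcs1 and Srebf2, and in 3.67% of all promoters. Only this exact core was searched for, so a window without it may still hold a sterol element with other letters. The STAT palindrome TTCNNNGAA, the motif of the transcription factors that OSM and LIF receptors activate, is in 0 of the 6 windows and in 7.02% of all. These are matches of letters in a short window and were not tested for binding. CCAAT and GGGCGG are printed in capitals in Idi1, Lss and Cyp51, which were lower at 6 h in KO cultures, and likewise in Srebf2, which did not pass.

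Within groups the enzyme genes varied together from array to array to unequal degrees. After the group means were removed, Pearson's r over the 48 arrays ran among the 5 enzyme genes from 0.16, between Idi1 and Cyp51, to 0.72. Idi1 and Fdps were at 0.20 and Lss and Cyp51 at 0.34. The highest were 0.72 between Sqle and Fdps, 0.72 between Fdps and Lss, 0.68 between Sqle and Cyp51 and 0.63 between Sqle and Lss. Removing the culture means as well left 0.67, 0.43, 0.72 and 0.38 for the same pairs. Insig1, a target in the same circuit, had r between -0.29 and 0.50 with the other 6 genes. The arrays share cultures, beadchips and normalisation, so these values describe the arrays and carry no test. KO culture 3 was low for Fdps (-0.36 from the group means), Lss (-0.45) and Srebf2 (-0.45), and WT culture 1 was low for Idi1 (-0.51).

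Genes outside the list whose 16 group means ran most like the mean centred profile of the 7 genes were named by a fixed number, 6. They were Stard4, a cholesterol transfer protein (r = 0.93), Msmo1, a sterol methyl oxidase of the same pathway (r = 0.92), the receptor gene Notch1 (0.88), Cttnbp2nl (0.88), Rbm12 (0.88) and Dusp5, a phosphatase of ERK (0.87). Among the 7 genes themselves r with that profile, which each of them enters, ran from 0.58 for Srebf2 to 0.91 for Cyp51. Since they were chosen for this likeness, their differences between the times are a description. Stard4 differed between 6 h and 1 h by -0.93 ± 0.16 in KO and by -0.36 ± 0.16 in WT cultures, and Msmo1 by -0.77 ± 0.12 in KO and by -0.17 ± 0.12 in WT cultures.

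**Figure D4:**
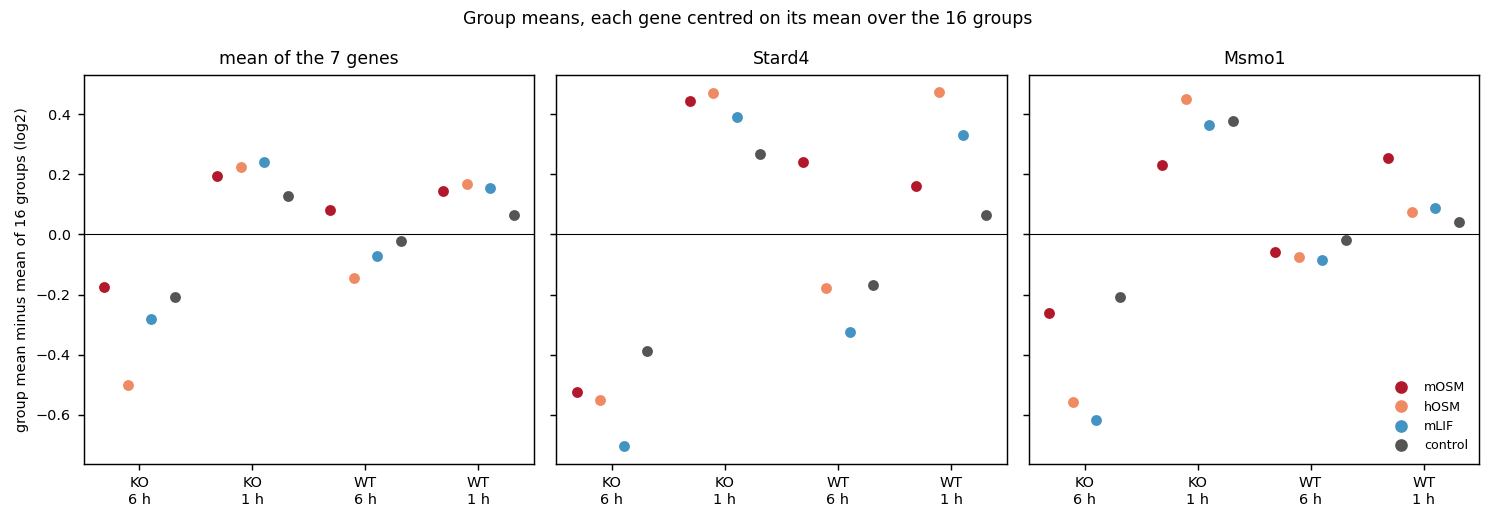
Mean of the 7 genes, Stard4 and Msmo1 in each of the 16 groups, each centred on its mean over the groups (log2). In all 3 panels the 4 KO groups at 6 h (left) lie below 0 and the 4 KO groups at 1 h above 0; the mean of the 7 genes is at -0.50 in KO hOSM at 6 h and at 0.24 in KO mLIF at 1 h.

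Other genes of sterol and fatty acid metabolism passed with mOSM in WT cultures at 6 h; that they responded differently from the 7 genes was not tested. Of 11 measured sterol synthesis enzymes outside the list, 2 rose and 1 fell, with a median of -0.04, where 27.5% of all genes passed. In the same comparison 1 of 7 osteoblast genes fell, the transcription factor gene Sp7 (-2.62 ± 0.49), and 1 of 7 adipocyte genes, Pparg (-2.44 ± 0.50), while 1 of 4 osteocyte genes rose, Pdpn (0.91 ± 0.21). With the culture as a block, where 45.2% of all genes passed, 5 of 7 osteoblast genes and 5 of 7 adipocyte genes were lower. The part of these markers in the results was not tested. Lbr, the lamin B receptor with sterol reductase activity, had 9.68, 9.90 and 9.66 with mOSM, against 9.05, 9.04 and 9.08 in the control (0.69 ± 0.14, limma adjusted p = 0.000244). Ebp, the sterol isomerase, rose by 0.52 ± 0.18 (limma adjusted p = 0.0312). Its highest group mean was that of WT hOSM at 6 h (10.54), so its level was no higher with mOSM than with hOSM. Dhcr7, the last enzyme of the pathway, had 5.74, 6.03 and 6.09 with mOSM, against 6.83, 7.26 and 6.99 in the control (-1.07 ± 0.39, adjusted p = 0.0366), with 2 of the 3 mOSM arrays above background. The mOSM arrays did not overlap the controls for any of these 3 genes. They were named for passing the test on the same arrays, so this adds no support. The calls of Ebp and Dhcr7 did not hold without single arrays. Median scaling ended those of Lbr (0.57, limma adjusted p = 0.0617) and Ebp (0.45, adjusted p = 0.18). Leaving out replicate 2 of WT mOSM gave 0.37 for Ebp (adjusted p = 0.197), and leaving out replicate 1 gave -0.97 for Dhcr7 (adjusted p = 0.114).

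The 5 genes of SREBP processing, Scap, Insig2, Mbtps1, Mbtps2 and Srebf1, gave 0 of 5 passing with mOSM in WT at 6 h by limma and 0 at an unadjusted p under 0.05. With the culture block 1 did, Mbtps1, which makes the first cut in SREBP (-0.45, adjusted p = 0.0137), named here after its value was seen. Of 5 measured genes of sterol transport and storage, Npc1, which exports cholesterol from lysosomes, fell by 1.09 on the log2 scale, with 10.50, 9.67 and 9.71 on the mOSM arrays, against 11.52, 10.80 and 10.82 in the control (adjusted p = 0.000339). Of 3 measured genes of sterol efflux and oxysterols, Ch25h, the cholesterol hydroxylase whose product holds SREBP in the endoplasmic reticulum, rose. It had 11.24, 11.19 and 11.34 with mOSM in WT at 6 h, against 7.75, 6.62 and 7.66 in the control (3.91 ± 0.47, 15.0-fold, adjusted p = 7.16e-08), and at 1 h it was higher with mOSM (2.34), hOSM (1.96) and mLIF (2.11). Those 1 h calls did not hold without single arrays: without replicate 2 of the WT control they were 2.03 (adjusted p = 0.0722), 1.66 (0.441) and 1.80 (0.22). Of 9 measured fatty acid genes, 4 fell with mOSM in WT at 6 h: Scd2 by 1.32, Acss2 by 1.10, Fads2 by 0.89 and Fads1 by 0.82, enzymes of desaturation and of acetyl-CoA supply. In that comparison 27.5% of all genes passed, and 1673 of 10739 fell. The Fads2 call was lost with the mean of its detected probes (-0.24, adjusted p = 0.411), and that of Acss2 without replicate 2 of the WT control (-0.78, adjusted p = 0.0883).

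Between the times in KO cultures, 2 of the 11 other sterol synthesis enzymes passed, both lower at 6 h: Msmo1, one of the genes chosen above for its likeness, and Hsd17b7, a sterol ketoreductase, by -0.45 ± 0.12 (adjusted p = 0.0101, limma). In this comparison 10.9% of all genes passed in either direction and 3.97% were lower. With the culture block 5 of 11 were lower, where 11% of all genes were. Hsd17b7 did not pass without KO culture 3 (-0.42, adjusted p = 0.116) or with the beadchip block (-0.34, adjusted p = 0.164). Of the 5 genes of SREBP processing, Insig2 was higher (0.25 ± 0.08, adjusted p = 0.0379) and Mbtps2, the protease of the second cut, lower (-0.38 ± 0.12, adjusted p = 0.0289). Neither held without KO culture 3, where they were at 0.19 (adjusted p = 0.302) and -0.43 (adjusted p = 0.0663). Of 9 fatty acid genes 3 were lower in KO cultures, Acss2 by -0.62 ± 0.16, Scd2 by -0.52 ± 0.13 and Fads1 by -0.28 ± 0.06, and 4 in WT cultures, Acss2 by -0.86 ± 0.16, Scd2 by -0.52 ± 0.13, Fads2 by -0.45 ± 0.14 and Fads1 by -0.40 ± 0.06. Between the times in WT cultures 23.7% of all genes passed in either direction. With the beadchip block Scd2 passed in neither KO (-0.38, adjusted p = 0.0877) nor WT cultures (-0.37, adjusted p = 0.12), and median scaling ended the WT call of Fads2 (-0.43, adjusted p = 0.0564). In WT cultures Dhcr7 passed (-0.81 ± 0.20, adjusted p = 0.00195). Ch25h was lower at 6 h in both genotypes, by -1.85 ± 0.23 in KO and -1.81 ± 0.23 in WT cultures.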

How the data were processed

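Gene expression was measured on 48 Illumina bead arrays of cultured osteoblasts, 3 arrays in each of 16 groups. The deposited signal file holds bead intensity per probe, exported from BeadStudio per the submitters' processing notes, and the detection p-value the authors deposited for each probe. A second deposited table holds log2 values that the authors had normalised; the notes name limma with no settings. From the intensities, limma 3.58.1 in R 4.3.3 (neqc, offset 16, its negative controls estimated by way of the detection column) gave background-corrected, quantile-normalised log2 values, at most 0.0338 from the deposited ones. A probe was kept where 3 or more arrays had its detection p below 0.01, and the brightest kept probe stood for its gene, leaving 10739 genes. Gene symbols came from the platform annotation, where 34885 probes have 1 symbol and 18 have several, of which none was named. Promoters came from RefSeq on GRCm38.p6.

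A model of 16 group means with moderated statistics (32 residual degrees of freedom) was fitted to all genes, with Benjamini and Hochberg adjustment over all genes within each comparison and a threshold of 0.05. There were 40 planned comparisons and 3 added after the values were seen, those of 6 h with 1 h over all treatments. The fit was tested on simulated data. Same-numbered arrays of a genotype deviated together from their group means (mean correlation 0.659, lowest 0.302), while those of the 2 genotypes did not (-0.00149). The replicate number was therefore taken to mark a culture within a genotype, which the sample titles do not state. The fit with the culture as a block stands beside the results it changes. For KO against WT controls the culture was a random block (correlation 0.427). The members, the other gene lists (named by their members with the largest change past the threshold, up to 4) and the marker lists were chosen with earlier results of these data known. Figures were drawn with matplotlib 3.10.9 in Python 3.11.15.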

Additional observations from a re-analysis of the deposited data

Results flagged for a closer look

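None of the 7 measured genes met a rule for a closer look. Among the other sterol and fatty acid genes, 5 differences between effects passed a test of the difference itself. Ch25h responded less to mOSM at 6 h in KO than in WT cultures, by -3.41 ± 0.66 (limma adjusted p = 0.000669): it had 8.21, 7.64 and 7.60 with mOSM in KO, against 11.24, 11.19 and 11.34 in WT. For Fads1 the effect of mOSM at 6 h was higher in KO than in WT by 0.83 ± 0.17 (adjusted p = 0.00135). In WT cultures the mOSM effect was larger at 6 h than at 1 h for Lbr, by 0.76 ± 0.20 (adjusted p = 0.00779; 0.63 and 0.251 with median scaling). The same change of the mOSM effect was -1.07 ± 0.32 for Npc1 (adjusted p = 0.0214; -0.32 and 0.325 with the mean of its detected probes) and -0.74 ± 0.17 for Fads1 (adjusted p = 0.00296). Their causes were not tested.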

How the results depend on the processing

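The counts of passing genes among the 7 were recomputed with the deposited log2 values, median scaling, no background correction, stricter and no filters on dim probes, the mean of detected probes, culture and beadchip blocks, the compared groups alone, the first thaw day alone and each array left out. Among these counts 845 stayed within 1.5 times the value given above and 19 did not. Most comparisons had a count of 0 to begin with, and a 0 that stayed 0 is among the 845. For mOSM minus hOSM in WT at 6 h the count of 1 became 0 under median scaling and 0 with the first thaw day alone, 2 with the culture as replicate block, and 0 to 1 as arrays were left out. For mOSM minus mLIF in WT at 6 h it was 1 with the replicate block. For 6 h minus 1 h in WT it was 2 with the mean of detected probes, 2 with the replicate block and 0 to 1 over left-out arrays. For the difference of that between KO and WT it was 1 without background correction, 1 with probes detected on all arrays of a group, 2 with the replicate block and 0 to 1 over left-out arrays. The KO count of 4 ran from 3 to 5 as arrays were left out. Among the values for single named genes, 1145 kept direction and side of the threshold, 150 no longer passed and 6 changed sign. The 6 were small differences of mOSM from control in WT at 6 h that never passed: Insig1 with the mean of probes (-0.21), Lss with the first thaw day (0.13), Lss with single arrays left out (from -0.20 to 0.16) and Idi1 with single arrays left out (from -0.55 to 0.089). The culture block also raised the number of all genes passing, to 3552 from 1713 for mOSM minus hOSM and to 3385 from 1660 for mOSM minus mLIF in WT at 6 h, to 4858 from 2956 for mOSM minus control in WT at 6 h, to 2837 from 1166 for 6 h minus 1 h in KO (682 with median scaling), to 4387 from 2542 for the same in WT and to 715 from 51 for the KO minus WT difference of that. The causes were not tested. Few arrays limit the precision throughout, and for Idi1, Lss and Dhcr7 a signal near background limits it further.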
